A study of Mus musculus with 9 samples.

Results

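Activity-induced immediate early genes are the genes that a cell transcribes within minutes of a stimulus, before any new protein has been made. The 33 examined here were taken by gene symbol from a table of 53465 genes measured by bulk RNA sequencing in mouse ventral hippocampus, and all 33 were among the 17753 genes with a mean of at least 0.5 FPKM (fragments scaled to gene length and library depth). The 9 libraries formed 3 groups of 3. Every group carried the word CRS in its label, so no group without CRS was compared. The groups were CRS-WT, CRS-NKAα1+/-, whose mark denotes 1 intact copy of NKAα1, and CRS-WT-DR5-12D, wild-type mice given DR5-12D. Neither CRS nor DR5-12D is explained in the labels, which also give no age, sex, dose or time. DR5-12D is known from other work as an antibody to an extracellular stretch of NKAα1. Whether the 3 libraries of a group came from separate animals is not stated, and the p-values therefore reflect only how far these libraries differ, which may be technical.

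In neurons, calcium entry and growth factor signals act through kinases of the CaMK and MAP kinase families on CREB, SRF with its partner Elk1, and MEF2, which are already bound near these genes. The first proteins made are mostly transcription factors, among them the AP-1, Egr and Nr4a families and Npas4, and these switch on later genes of synapses and secreted peptides. Others act at the synapse directly, as Arc and Homer1 do, or end the signal, as the Dusp phosphatases do. In the hippocampus the induced set is widely used to mark recently active neurons.

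The implied depth was 15117452 to 27323380 fragments per library, and the member values rested on 7 fragments (Atf3) to 9437 fragments (Arc). Groups are called by their labels throughout. In CRS-WT, Prox1, a transcription factor of dentate gyrus granule cells, stood at 11.6, 9.96 and 7.92 FPKM in replicates 1 to 3. The values were 1.28, 0.900 and 7.51 in CRS-NKAα1+/-, and CRS-WT-DR5-12D had 1.0, 10.2 and 9.0. Prox1 was thus under 3 FPKM in 3 libraries, replicate 1 of CRS-WT-DR5-12D and replicates 1 and 2 of CRS-NKAα1+/-, and in none of CRS-WT. In these 3 libraries the 16 granule cell markers summed to 115 to 127 FPKM against 145 to 178 in the other 6, while 9 of the 16 lay below all of the other 6 and C1ql3 and Pdzd2 lay above. The sum hides unlike changes. C1ql2 stood at 0.596 to 0.973 FPKM against 23.6 to 40.1 and Dsp at 0.0229 to 0.0595 against 1.53 to 3.25, while C1ql3 stood at 47.9 to 62.4 against 31.2 to 39.2. Prox1, which set the split, is among the 16 and the 9, and lay below by that choice. Of all genes 11.6% lay below and 13.5% above. The 12 listed cortical markers summed to 306 to 338 FPKM against 99.6 to 124, while 9 of the 11 tested lay above all of the other 6 and Tshz2 lay below. The 10 neuronal markers summed to 1256 to 1393 FPKM against 1016 to 1151, with 4 above all of the other 6 and Gad1, an enzyme of GABA synthesis, below. No granule, cortical or neuronal marker was at 0. Fewer cells of a type and less RNA per cell cannot be told apart in bulk tissue, and the part of these cell markers in the results below was not tested.

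Promoter windows from RefSeq (GRCm38.p6, 250 bases before to 50 after a start) were used for 25 of the 33 genes, in 32 windows. They were searched on both strands for the core of the cyclic AMP response element, TGACG, for the full element TGACGTCA, which holds the core on both strands, and for the CArG box, the site of SRF. The core was found in 62.5% of the members' windows (17 of 25 genes) and in 20.8% of 32851 windows of all genes. The full element was found in 9.38% against 1.79% and the CArG box in 15.6% against 1.63%. Several windows belong to 1 gene, and those of Egr2 overlap, so the members' windows are not independent. The full element lay at Btg2, Dusp1 and Maff (3 of 25 genes), and the CArG box at Egr2 and Dusp5 (2 of 25). Sites more than 250 bases before a start were outside the search, so a gene without a match may hold one there. Egr1, Egr3, Arc, Ier2, Dusp4, Sik1, Nptx2 and Trib1 were not searched. The 5 windows below are shown because Fos, Npas4 and Nr4a1 were high and Nr4a2 and Dusp5 low in the libraries low in Prox1, while all 5 hold the core. Capitals mark the core site, which reads CGTCA when it lies on the other strand, and in Dusp5 also 2 adjoining CArG boxes.
Fos, chr12:85473640-85473939, plus strand: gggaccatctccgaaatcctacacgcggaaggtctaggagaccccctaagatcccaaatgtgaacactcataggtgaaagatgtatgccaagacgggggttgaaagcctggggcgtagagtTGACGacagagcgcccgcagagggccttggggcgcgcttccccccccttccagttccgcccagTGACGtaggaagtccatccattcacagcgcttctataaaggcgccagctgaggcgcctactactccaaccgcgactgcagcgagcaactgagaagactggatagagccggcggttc
Npas4, chr19:4989922-4990221, minus strand: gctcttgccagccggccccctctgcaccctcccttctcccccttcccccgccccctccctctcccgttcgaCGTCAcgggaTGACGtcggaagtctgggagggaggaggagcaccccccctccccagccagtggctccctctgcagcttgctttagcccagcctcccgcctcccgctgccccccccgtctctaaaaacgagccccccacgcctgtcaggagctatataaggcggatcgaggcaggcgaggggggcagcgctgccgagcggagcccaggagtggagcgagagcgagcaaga
Nr4a1, chr15:101266596-101266895, plus strand: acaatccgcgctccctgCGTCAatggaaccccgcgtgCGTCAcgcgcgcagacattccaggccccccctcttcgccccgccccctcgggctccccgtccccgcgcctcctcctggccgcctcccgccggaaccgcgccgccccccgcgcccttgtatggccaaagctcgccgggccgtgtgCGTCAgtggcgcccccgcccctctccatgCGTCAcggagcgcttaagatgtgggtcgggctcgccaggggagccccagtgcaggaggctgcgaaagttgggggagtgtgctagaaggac
Nr4a2, chr2:57123954-57124253, minus strand: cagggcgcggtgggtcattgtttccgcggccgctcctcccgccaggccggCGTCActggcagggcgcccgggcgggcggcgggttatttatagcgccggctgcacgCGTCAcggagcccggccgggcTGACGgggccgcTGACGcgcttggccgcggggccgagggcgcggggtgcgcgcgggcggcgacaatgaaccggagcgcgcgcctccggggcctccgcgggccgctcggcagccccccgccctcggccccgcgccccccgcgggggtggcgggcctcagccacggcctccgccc
Dusp5, chr19:53528895-53529194, plus strand: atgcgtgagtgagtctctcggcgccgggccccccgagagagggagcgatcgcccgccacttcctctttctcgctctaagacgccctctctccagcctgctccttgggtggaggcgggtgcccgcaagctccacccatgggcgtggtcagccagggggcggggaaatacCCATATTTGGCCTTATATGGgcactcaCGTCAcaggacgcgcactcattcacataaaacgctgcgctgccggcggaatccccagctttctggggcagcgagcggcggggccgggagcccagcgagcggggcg
The windows of Nr4a1 and Nr4a2 hold 4 core sites each, those of Fos and Npas4 hold 2 each, and that of Dusp5 holds 1. Of the members whose libraries low in Prox1 lay above the other 6, 7 of 9 with a window had the core site, and of those that lay below, 2 of 3 did. A match of letters describes the window and shows no binding.

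No member passed the threshold between any 2 groups. With limma on log2(FPKM + 1) over all 17753 genes, 0 of the 33 were called at an adjusted p under 0.05 in CRS-NKAα1+/- against CRS-WT, where 0.0225% of all genes were called. The count was also 0 in CRS-WT-DR5-12D against CRS-WT (0.0282% of all genes) and in CRS-WT-DR5-12D against CRS-NKAα1+/- (0.513%). At an unadjusted p under 0.05 there were 5, 4 and 5 members in the same order, where 14.1%, 13% and 8.83% of all genes passed. The voom test on fragment counts recovered from the FPKM values also called 0 members in each pair, with 5, 6 and 4 at an unadjusted p under 0.05.

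The members' values differed with the Prox1 level of a library. In 14 of the 33 genes all 3 libraries low in Prox1 lay above all of the other 6, a pattern shown by 13.5% of all genes, and in 3 they lay below, as in 11.6% of all genes. The remaining 16 overlapped. On values rescaled to TPM, which lowers most genes of these 3 libraries against the rest, the counts were 13 and 7, as in 3.12% and 43.5% of all genes. Within CRS-WT-DR5-12D, 1 library against 2, 23 members lay above and 7 below, as in 36.8% and 38.9% of all genes. Within CRS-NKAα1+/-, 2 against 1, 19 lay above and 12 below, as in 36.5% and 38.4%. The median difference of the members was 0.50 on the log2(FPKM + 1) scale against −0.0015 for all genes. These values describe the libraries and carry no test, since the split comes from the same libraries. The 14 genes were Fos, Junb, Egr1, Egr2, Egr3, Egr4, Arc, Npas4, Nr4a1, Ier5, Dusp6, Homer1, Nptx2 and Trib1, and the 3 were Jun, Nr4a2 and Dusp5.

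**Figure D1:**
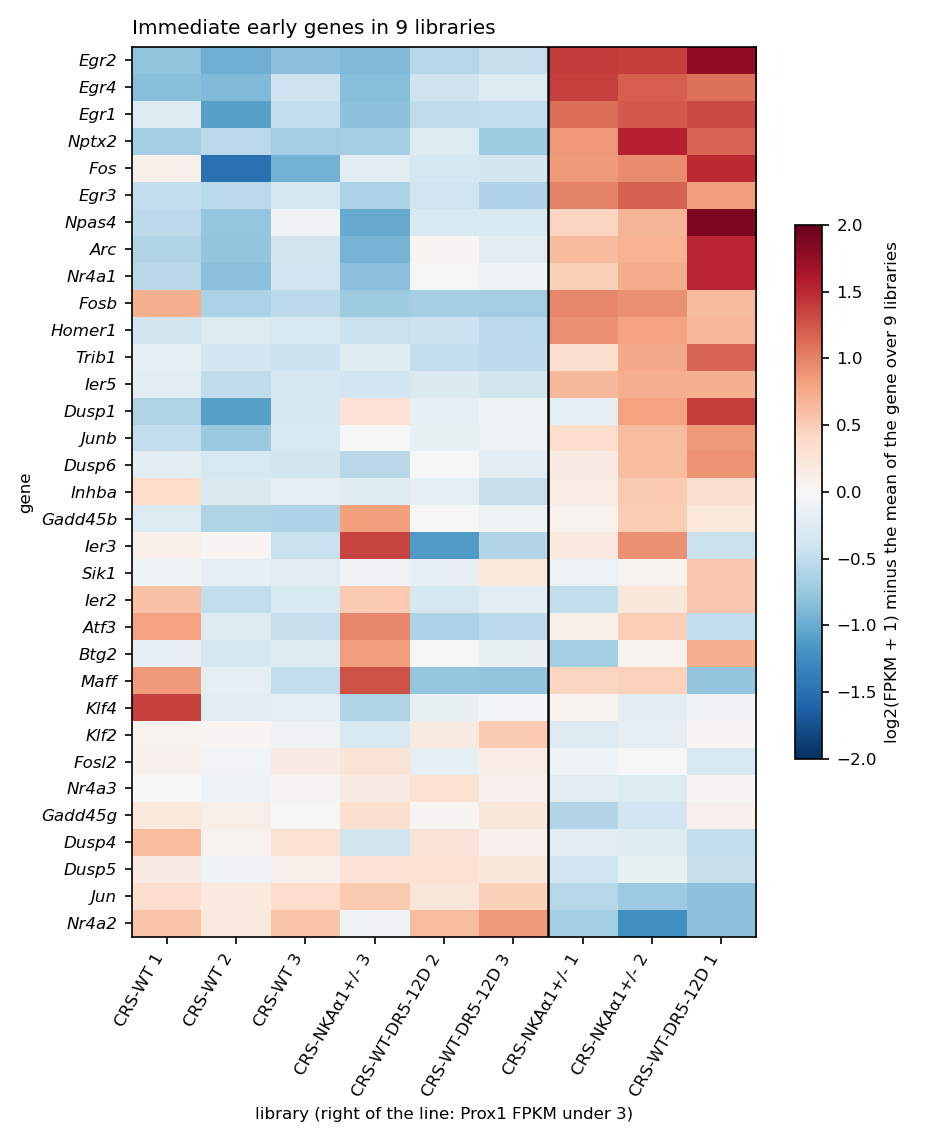
Each row is a gene and each column a library, with color giving log2(FPKM + 1) minus the gene's mean over the 9 libraries, on a scale from −2 to 2. To the right of the line stand the 3 libraries with Prox1 under 3 FPKM, where the Egr genes, Nptx2, Fos, Npas4, Arc and Nr4a1 are high and Jun and Nr4a2 are low.

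Among the AP-1 factors, which pair as Fos and Jun proteins to bind DNA, the members did not move as a block. Fos, the founding member, stood at 9.10, 2.36 and 3.92 FPKM in CRS-WT replicates 1 to 3. It stood at 16.1, 17.1 and 7.04 in the CRS-NKAα1+/- libraries and at 25.5, 6.38 and 6.34 in those of CRS-WT-DR5-12D. The 3 libraries low in Prox1 were the highest of the 9, with a mean of 19.6 ± 5.15 FPKM (SD, n = 3) against 5.86 ± 2.38 (SD, n = 6), a ratio of 3.34. Junb, a Jun protein that damps growth, stood at 23.9, 20.1 and 27.3 FPKM in CRS-WT, at 44.0, 53.2 and 34.3 in the CRS-NKAα1+/- libraries and at 62.6, 30.6 and 31.3 in those of CRS-WT-DR5-12D. All 6 libraries of the latter groups lay above all of CRS-WT, and the 3 low in Prox1 were the highest. Jun, the partner of Fos, ran the other way, at 15.3 to 18.4 FPKM where Prox1 was low and 32.0 to 40.5 in the other 6, a ratio of 2.15 in favor of the latter. Fosb, whose truncated form is long-lived in stimulated neurons, reached 4.50 to 5.94 FPKM where Prox1 was low. It stood at 1.17 to 1.47 in 5 of the other libraries, but at 4.84 in CRS-WT replicate 1, so its values overlapped. Fosl2, which encodes Fra-2, varied least of the AP-1 genes, from 4.44 to 7.19 FPKM over all 9 libraries. Of the exon bases of Jun 7.28% overlap Junos, and of those of Junb 7.52% overlap Prdx2, both on the opposite strand, and the strandedness of counting is not given in the sources used here.

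The 4 Egr genes, zinc finger factors bound to GC-rich sites, were high together in the 3 libraries low in Prox1. Egr1, long used as a marker of synaptic plasticity, stood at 22.8, 12.5 and 19.3 FPKM in CRS-WT, at 61.0, 65.9 and 15.2 in the CRS-NKAα1+/- libraries and at 70.5, 19.0 and 19.3 in those of CRS-WT-DR5-12D. Replicate 3 of CRS-NKAα1+/- thus lay among the CRS-WT libraries, unlike its 2 companions. Egr2, also needed for myelination by Schwann cells, stood at 0.797, 0.584 and 0.760 FPKM in CRS-WT, at 7.29, 7.17 and 0.697 in the CRS-NKAα1+/- libraries and at 9.73, 1.10 and 1.25 in those of CRS-WT-DR5-12D. This was the largest ratio of the 33, 9.34, from 8.07 ± 1.44 FPKM (SD, n = 3) where Prox1 was low and 0.864 ± 0.254 (SD, n = 6) elsewhere. Egr3, which regulates Arc, stood at 16.0, 15.5 and 17.8 FPKM in CRS-WT, at 46.6, 53.5 and 14.5 in the CRS-NKAα1+/- libraries and at 41.9, 17.2 and 14.7 in those of CRS-WT-DR5-12D. Egr4 stood at 4.69, 4.59 and 6.74 FPKM in CRS-WT, at 25.4, 22.5 and 4.69 in the CRS-NKAα1+/- libraries and at 21.1, 6.67 and 7.62 in those of CRS-WT-DR5-12D. For both, the 3 libraries low in Prox1 lay above all of the other 6 by a wide gap, and the ratios of the means were 2.97 and 3.95. Within CRS-NKAα1+/- alone the mean of the 2 libraries low in Prox1 was 10.4 times the third for Egr2 and 4.16 times for Egr1. Within CRS-WT-DR5-12D alone the library low in Prox1 was 8.30 and 3.68 times the mean of its 2 companions.

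Npas4, a factor induced by calcium entry and almost restricted to neurons, stood at 2.18, 1.66 and 3.33 FPKM in CRS-WT, at 5.15, 6.27 and 1.27 in the CRS-NKAα1+/- libraries and at 15.5, 2.70 and 2.68 in those of CRS-WT-DR5-12D. Nr4a1, an orphan nuclear receptor that limits spine density in active excitatory neurons, stood at 20.9, 16.9 and 23.2 FPKM in CRS-WT, at 43.6, 53.0 and 16.9 in the CRS-NKAα1+/- libraries and at 91.0, 30.9 and 29.2 in those of CRS-WT-DR5-12D. In both genes the highest value was that of CRS-WT-DR5-12D replicate 1, which was the highest library for 11 of the 33 genes. The ratios of the means were 3.90 for Npas4 and 2.72 for Nr4a1. Nr4a2, the related receptor required by midbrain dopamine neurons, did the reverse. It stood at 12.5, 9.53 and 12.6 FPKM in CRS-WT, at 4.72, 2.93 and 7.70 in the CRS-NKAα1+/- libraries and at 4.20, 13.0 and 15.6 in those of CRS-WT-DR5-12D. Its mean was 3.95 ± 0.923 FPKM (SD, n = 3) where Prox1 was low and 11.8 ± 2.79 (SD, n = 6) elsewhere, 2.99 times as much. Nr4a3, the third receptor of the family, stayed between 6.53 and 10.2 FPKM, and its values overlapped. The promoter windows of Nr4a1 and Nr4a2, printed above, hold the same number of core sites, while the levels of these genes ran in opposite directions.

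**Figure D2:**
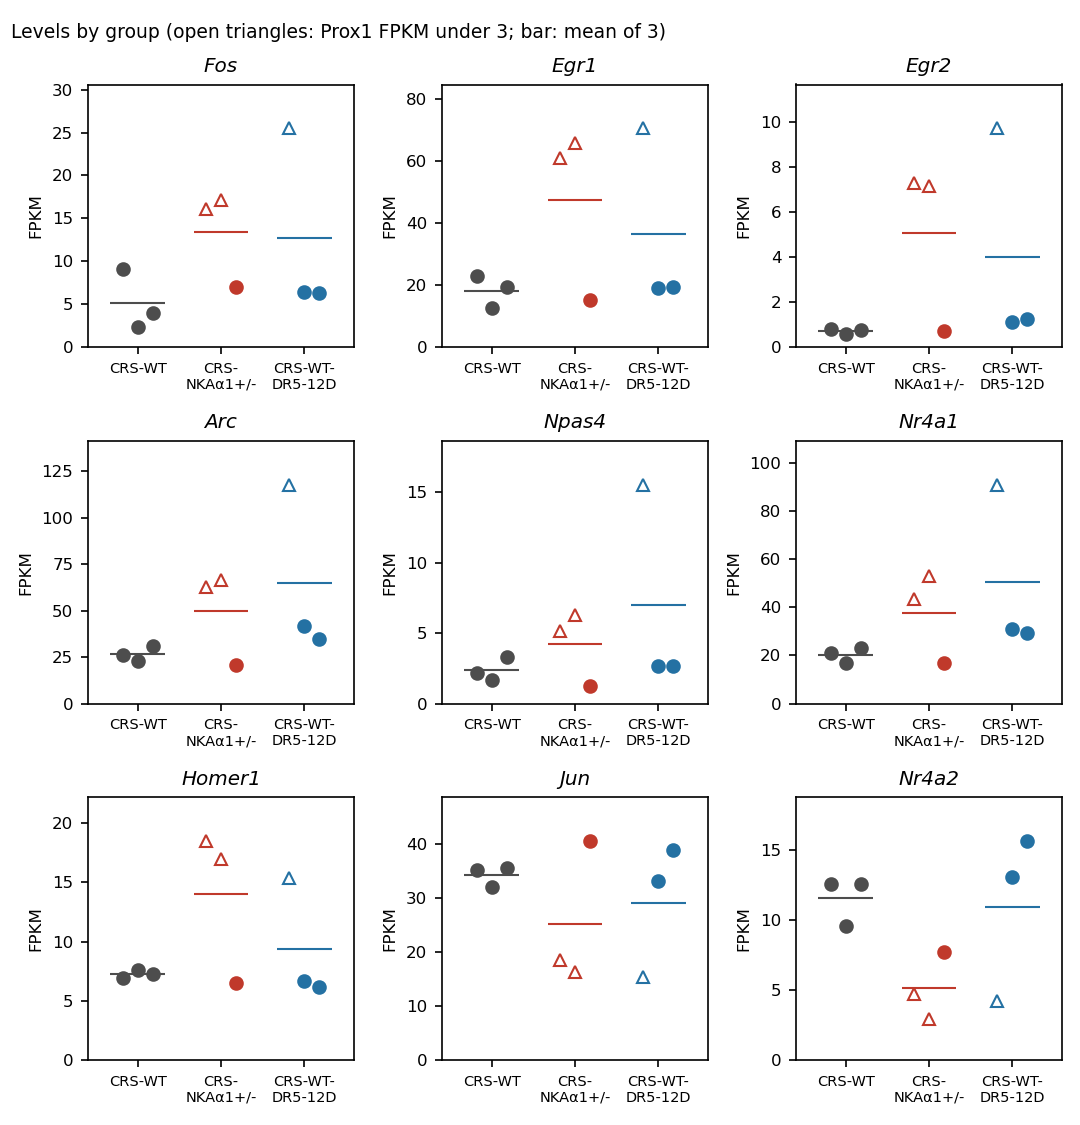
FPKM of 9 genes on linear axes, 1 panel a gene and 1 point a library, with a bar at the mean of each group of 3. Open triangles mark the 3 libraries with Prox1 under 3 FPKM: they are the highest for Fos, Egr1, Egr2, Arc, Npas4, Nr4a1 and Homer1 and the lowest for Jun and Nr4a2.

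The members that act at synapses were also higher where Prox1 was low. Arc, which drives the removal of AMPA receptors from synapses, stood at 26.2, 22.9 and 31.0 FPKM in CRS-WT, at 62.8, 66.2 and 20.8 in the CRS-NKAα1+/- libraries and at 118, 41.6 and 34.9 in those of CRS-WT-DR5-12D. Nptx2, a secreted pentraxin that gathers AMPA receptors, stood at 5.59, 6.21 and 5.47 FPKM in CRS-WT, at 18.3, 29.5 and 5.68 in the CRS-NKAα1+/- libraries and at 22.5, 7.70 and 5.42 in those of CRS-WT-DR5-12D. Ratios of the means were 2.78 and 3.89. In the other 6 libraries Nptx2 stayed between 5.42 and 7.70 FPKM. Homer1, a scaffold of metabotropic glutamate receptors, stood at 15.4 to 18.5 FPKM against 6.14 to 7.57. Its value joins the short induced form with the long constitutive ones, which a table by gene cannot separate. Inhba, the subunit of activin A, was low and overlapped, at 1.76 to 2.58 FPKM where Prox1 was low and 0.806 to 2.21 elsewhere.

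Feedback genes were mixed. The MAP kinase phosphatases differed from one another: Dusp6, specific for ERK, stood at 17.3 to 29.5 FPKM where Prox1 was low and 10.2 to 15.5 elsewhere, while Dusp5, the nuclear ERK phosphatase, stood at 4.80 to 6.16 against 6.55 to 8.84. Dusp5 shares 22.1% of its exon bases with AC137853.2 on the opposite strand. Dusp1, which acts on p38 and JNK, stood at 5.27, 3.51 and 6.55 FPKM in CRS-WT, at 7.32, 15.7 and 10.6 in the CRS-NKAα1+/- libraries and at 24.0, 7.52 and 8.03 in those of CRS-WT-DR5-12D. Its 6 values outside CRS-WT were all above the 3 within it. Dusp4 stood at 6.48, 4.10 and 5.05 FPKM in CRS-WT, at 3.17, 3.13 and 2.80 in the CRS-NKAα1+/- libraries and at 2.49, 4.82 and 4.16 in those of CRS-WT-DR5-12D. The 3 libraries of CRS-NKAα1+/- lay below all of CRS-WT, replicate 3 with its higher Prox1 included. Trib1, a pseudokinase that marks proteins for degradation, stood at 3.12 to 6.39 FPKM where Prox1 was low against 1.28 to 1.90. Ier5, a regulator of the heat shock factor, stood at 24.9 to 26.3 FPKM against 10.6 to 13.2. Sik1, a kinase that restrains CREB coactivators, stood at 2.79, 2.58 and 2.48 FPKM in CRS-WT, at 2.69, 3.20 and 2.84 in the CRS-NKAα1+/- libraries and at 4.84, 2.57 and 3.63 in those of CRS-WT-DR5-12D. Its groups overlapped. Klf4, a pluripotency factor also induced in endothelium, stood at 5.28 FPKM in CRS-WT replicate 1 and at 0.601 to 1.55 in the other 8 libraries. Ier2 ranged from 4.03 to 9.69 FPKM and Gadd45g, of the Gadd45 stress family, from 7.90 to 15.7, both with overlap.

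In CRS-NKAα1+/- against CRS-WT, which asks how loss of 1 copy goes with hippocampal RNA under CRS, 24 of the 33 genes had higher means and 9 lower ones. The median log2 fold change was 0.53, against 0.0091 for all genes. Gadd45b, a stress protein that also promotes DNA demethylation in neurons, had the smallest p. It stood at 9.83, 7.70 and 7.57 FPKM in CRS-WT and at 12.8, 17.6 and 22.3 in CRS-NKAα1+/-, so the groups did not overlap. The log2 fold change was 0.96 ± 0.19 (SE) with a limma adjusted p of 0.15. Ier3, a stress-induced survival protein, stood at 12.9, 12.3 and 8.56 FPKM in CRS-WT and at 13.8, 23.5 and 32.2 in CRS-NKAα1+/-, a log2 fold change of 0.92 ± 0.30 (adjusted p 0.3). Both genes were highest in replicate 3, the library of the group without low Prox1. Junb (0.84 ± 0.28, adjusted p 0.301) and Dusp1 (0.97 ± 0.43, adjusted p 0.358) had higher means on the log2 scale. Dusp4 (−0.61 ± 0.20, adjusted p 0.301) and Nr4a2 (−1.10 ± 0.44, adjusted p 0.334) had lower ones, and none of these passed. On values rescaled to TPM the median of all genes shifted to −0.42, and Nr4a2, Dusp4, Klf2 and Gadd45g were then called lower, at −1.64, −1.12, −0.73 and −0.80, among 41.4% of all genes called lower on that scale.

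In CRS-WT-DR5-12D against CRS-WT, 22 genes had higher and 11 lower means, with a median log2 fold change of 0.34 against 0.0071 for all genes. Gadd45b again had the smallest p, with 14.2, 12.1 and 11.3 FPKM in CRS-WT-DR5-12D, all above CRS-WT. Its log2 fold change was 0.53 ± 0.19 with a limma adjusted p of 0.292. Junb (0.71 ± 0.28, adjusted p 0.334), Dusp1 (1.06 ± 0.43, 0.352 adjusted), Sik1 (0.34 ± 0.16, 0.409 adjusted) and Nr4a1 (1.07 ± 0.50, 0.409 adjusted) had higher log2 means. Maff, a small partner of AP-1 and Nrf2 proteins, stood at 4.20, 1.5 and 1.04 FPKM in CRS-WT and at 0.666, 0.671 and 0.666 in CRS-WT-DR5-12D. Its log2 fold change was −0.84 ± 0.35 (adjusted p 0.356), and the values of CRS-WT-DR5-12D rested on 37, 27 and 23 fragments.

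The comparison of CRS-WT-DR5-12D with CRS-NKAα1+/- held the member nearest to the threshold. The median log2 fold change was −0.13 against 0.0065 for all genes, with 15 means higher and 18 lower. Ier3 stood at 8.50, 4.89 and 7.59 FPKM in CRS-WT-DR5-12D, below every library of both other groups. Against CRS-NKAα1+/- its log2 fold change was −1.55 ± 0.30, with a limma adjusted p of 0.0864. It was called only with CRS-NKAα1+/- replicate 1 left out, among the replicates left out in turn (−1.87 ± 0.25, adjusted p 0.0216), where 1.08% of all genes were called lower. Maff stood at 2.86, 2.94 and 5.95 FPKM in CRS-NKAα1+/-, above all of CRS-WT-DR5-12D (−1.5 ± 0.35 in log2 terms, adjusted p 0.141). Atf3, a stress-induced factor of the ATF family, stood at 2.17, 0.522 and 0.30 FPKM in CRS-WT, at 0.979, 1.56 and 2.55 in the CRS-NKAα1+/- libraries and at 0.283, 0.171 and 0.256 in those of CRS-WT-DR5-12D. The last group rested on 16, 7 and 9 fragments, and its log2 fold change against CRS-NKAα1+/- was −1.08 ± 0.33 (adjusted p 0.3), a scale that understates changes of low values. Klf2, a zinc finger factor best known from endothelium, stood at 2.83, 2.72 and 2.47 FPKM in CRS-WT. It stood at 2.04, 2.18 and 1.92 in the CRS-NKAα1+/- libraries and at 2.75, 3.11 and 4.22 in those of CRS-WT-DR5-12D. The groups of this pair did not overlap, with 0.50 ± 0.12 on the log2 scale and an adjusted p of 0.159. Gadd45b (−0.43 ± 0.19, adjusted p 0.565) and Nr4a2 (0.88 ± 0.44, adjusted p 0.64) completed the 6 smallest p-values. By group the sum of 10 microglial markers stood in the same order as the means of Ier3, Maff and Atf3. It was 394 to 515 FPKM in CRS-WT, 554 to 790 in CRS-NKAα1+/- and 233 to 294 in CRS-WT-DR5-12D, with none at 0. Within groups the order differed. In CRS-NKAα1+/- the sum was 572, 790 and 554 in replicates 1 to 3, while all 3 genes were highest in replicate 3. In CRS-WT the sum was highest in replicate 2 and the 3 genes in replicate 1. In CRS-WT-DR5-12D the sum, Ier3 and Atf3 were highest in replicate 1. Of the 10 markers, 4 were called lower in this pair, where 0.513% of all genes were called in either direction. The part of these markers in the values of the 3 genes was not tested.

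**Figure D3:**
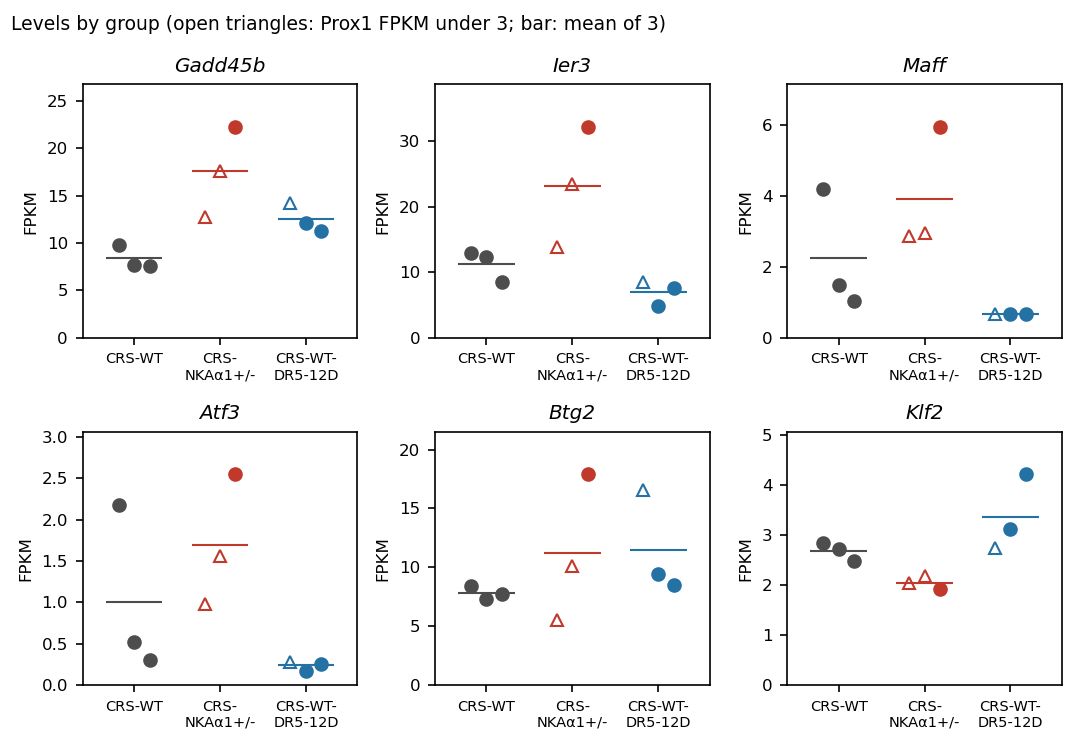
FPKM of 6 genes on linear axes, drawn as points by library with bars at group means and open triangles for Prox1 under 3 FPKM. Gadd45b and Ier3 are highest in replicate 3 of CRS-NKAα1+/-, at 22.3 and 32.2, and Maff and Atf3 are lowest in CRS-WT-DR5-12D.

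Without the 3 libraries low in Prox1, which leaves CRS-NKAα1+/- with replicate 3 alone and assumes that it varies like the other groups, the medians moved toward 0. The median log2 fold changes became −0.012, 0.15 and 0.036 in the 3 comparisons above, and 18, 7 and 12 of the 33 genes turned sign. Egr2 in CRS-NKAα1+/- against CRS-WT went from 1.51 ± 0.75 to −0.01 ± 0.14 on the log2 scale, and Egr1 went from 1.12 ± 0.64 to −0.20 ± 0.29. Others kept or widened their distance. Gadd45b stood at 1.32 ± 0.15 (limma adjusted p 0.0543), and Ier3 in CRS-WT-DR5-12D against CRS-NKAα1+/- at −2.22 ± 0.30 (adjusted p 0.0554). Btg2, an antiproliferative gene induced by p53, passed the threshold in these 6 libraries and under no other setting run. It stood at 8.38, 7.31 and 7.73 FPKM in CRS-WT, at 5.52, 10.1 and 17.9 in the CRS-NKAα1+/- libraries and at 16.5, 9.46 and 8.47 in those of CRS-WT-DR5-12D. Its log2 fold change for replicate 3 of CRS-NKAα1+/- against CRS-WT was 1.11 ± 0.11, while the fit of all 9 libraries gave 0.34 ± 0.37 for these groups. For CRS-WT-DR5-12D against that library it was −0.93 ± 0.11. With all 9 libraries it was 0.11 ± 0.37, so Btg2 was among the genes that turned sign in this pair. In these fits 0.225% of all genes were called higher in the former pair and 0.529% lower in the latter. With log2 Prox1 as a covariate in the fit of all 9 libraries, Arc, Nr4a1 and Npas4 passed the threshold in CRS-WT-DR5-12D against CRS-NKAα1+/-. All were higher, by 0.93 ± 0.13, 0.93 ± 0.12 and 1.12 ± 0.14 (limma adjusted p 0.0339, 0.0259 and 0.0259), where 0.0451% of all genes were called higher. These 3 genes passed under no other setting run, and without the 3 libraries low in Prox1 their log2 fold changes were 0.84, 0.79 and 0.70. The covariate is the gene that set the split, and at higher Prox1 CRS-NKAα1+/- has replicate 3 alone, so group and Prox1 level are not cleanly separated. In the 6 libraries with higher Prox1, Arc stood at 34.9 to 41.6 FPKM in CRS-WT-DR5-12D, 22.9 to 31.0 in CRS-WT and 20.8 in CRS-NKAα1+/-.

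**Figure D4:**
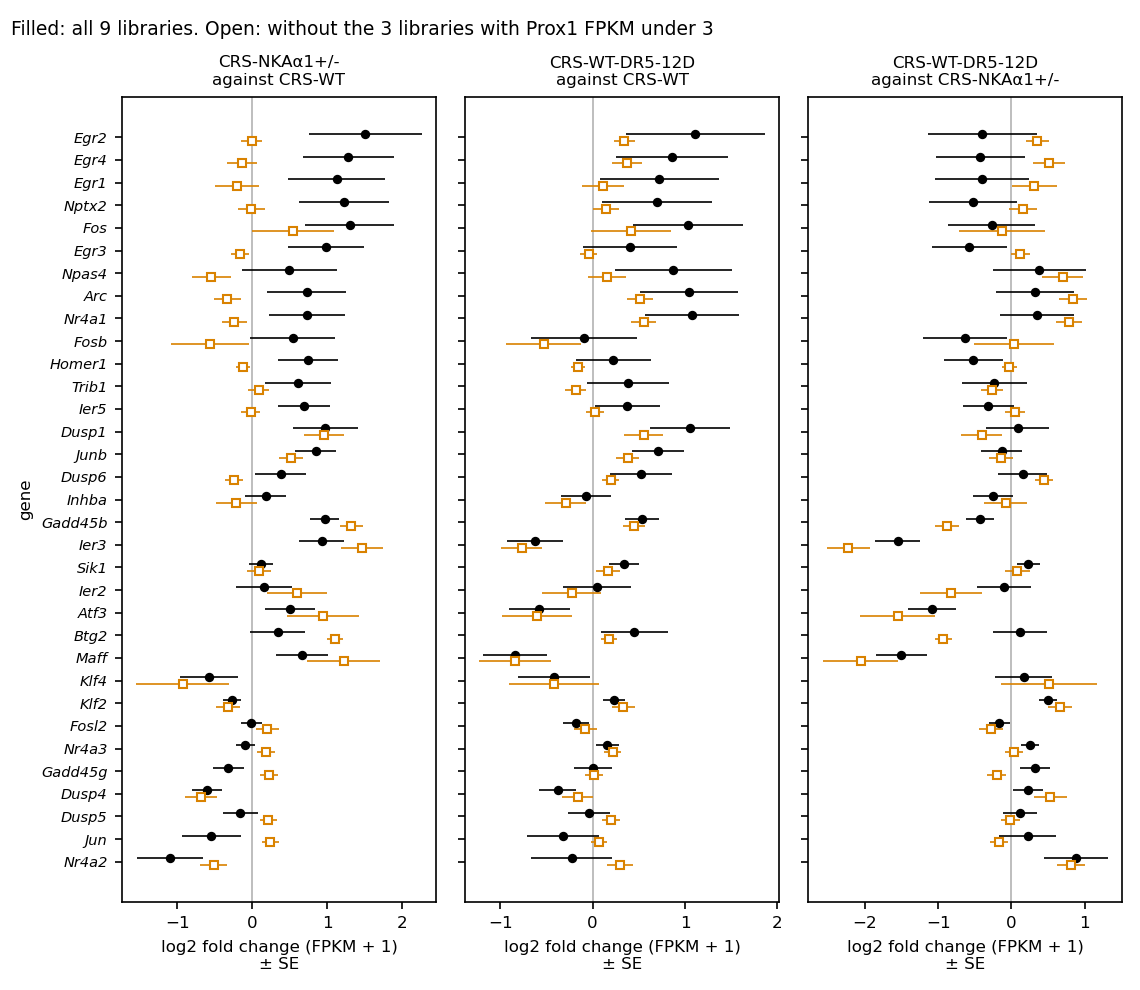
Log2 fold change of log2(FPKM + 1) with its standard error for the 33 genes in the 3 comparisons, filled circles from all 9 libraries and open squares without the 3 low in Prox1. The Egr genes, Nptx2 and Fos lie nearer to 0 without those libraries in CRS-NKAα1+/- against CRS-WT, while Gadd45b and Ier3 do not.

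The regulators upstream of these genes showed no call. Of 31 kinases, calcineurin subunits, DNA-bound factors and coactivators, limma called 0 in each pair, with medians of 0.03, −0.01 and −0.07 on the log2 scale. At an unadjusted p under 0.05 there were 4, 5 and 3, where 14.1%, 13% and 8.83% of all genes passed. Srf itself stood at 15.6 to 19.6 FPKM and Creb1 at 2.43 to 2.94 over the 9 libraries. Rps6ka1, the kinase RSK1 below ERK, had the smallest p, at −0.62 ± 0.11 in CRS-WT-DR5-12D against CRS-NKAα1+/- (adjusted p 0.0734). By the Prox1 split 8 of the 31 lay above and 3 below, as in 13.5% and 11.6% of all genes. Mef2c, which is also a cortical marker of the list above, had the largest difference, at 39.2 to 42.4 FPKM against 6.90 to 9.29.

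Later genes of the response, 18 of 20 listed tested, also had 0 calls in each pair. At an unadjusted p under 0.05 there were 1, 1 and 2, where 14.1%, 13% and 8.83% of all genes passed. By the Prox1 split 7 lay above and 1 below, as in 13.5% and 11.6% of all genes. Among the 7 was Rgs4, a brake on G protein signalling, at 99.7 to 106 FPKM against 31.2 to 38.8. Adcyap1, the neuropeptide PACAP, stood at 12.5 to 18.9 FPKM against 2.28 to 5.39, and Pcsk1, a prohormone convertase, at 8.67 to 10.2 against 3.34 to 4.96. The single gene below was Nptx1, a pentraxin related to Nptx2, at 50.6 to 64.7 FPKM against 71.4 to 85.3. Bdnf, the classic late target, overlapped at 6.51 to 12.2 FPKM over all libraries. Ptgs2, which encodes cyclooxygenase 2, had the smallest p, at −1.04 ± 0.19 in CRS-WT-DR5-12D against CRS-NKAα1+/- (adjusted p 0.0734). Among 29 further early genes not counted among the 33, limma called 0, 0 and 2, with 9, 4 and 6 at an unadjusted p under 0.05. Of all genes 0.0225%, 0.0282% and 0.513% were called, and 14.1%, 13% and 8.83% passed without adjustment. The 2 that fell in CRS-WT-DR5-12D against CRS-NKAα1+/- were Socs3, the feedback inhibitor of cytokine receptors, by 2.21 ± 0.33 on the log2 scale, and Mcl1, a survival protein, by 0.50 ± 0.07. Both had an adjusted p of 0.0375. Of the 29, 7 lay above and 1 below by the Prox1 split, as in 13.5% and 11.6% of all genes. Their median difference by that split was 0.13 on the log2(FPKM + 1) scale, against 0.50 for the 33 members.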

How the data were processed

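Total RNA of 9 libraries from freshly isolated mouse ventral hippocampus was extracted with TRIzol, per the labels' protocols. The authors deposited 1 table of FPKM for 53465 genes and 9 columns, each matched by name to a library. The submitters' processing notes name cutadapt, HISAT2 and RSEM 1.2.30 with GRCm38, without their order. Annotation release, strandedness and filters: not given in the sources used here. Gene models came from GENCODE vM21 on GRCm38, and whole fragment counts within 0.02 were recovered for 91.5% of the 17722 kept genes with a length. FPKM is relative to the fragments of a library, and TPM to its FPKM sum. The small-RNA model Gm23935 held 4.67% to 37.9% of that sum, a share that enters the values rescaled to TPM. In CRS-NKAα1+/- against CRS-WT the median log2 fold change of all genes was 0.0091 on FPKM and −0.42 on TPM.

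Values were taken as log2(FPKM + 1), kept at a mean FPKM of at least 0.5, and fitted with limma 3.58.1 (R 4.3.3) on all 9 libraries, with group means, a trend of the spread and Benjamini-Hochberg adjustment over 17753 genes (two-sided, called at 0.05). Fold changes on this scale understate changes of low genes. The fit was also run on simulated data, drawn separately for each gene. Those data lack the differences that many genes share by Prox1 level, so they cannot show how the fit behaves under them. Python 3.11.15 made the tables and plots. Libraries with Prox1 under 3 FPKM were set beside the rest as a description. The members and lists were chosen with earlier results of these data known. All 33 members are named. Values in every library are given for Fos, Junb, Egr1, Arc, Npas4 and Nr4a1, for the 6 smallest p-values of each pair and for the 6 largest differences by Prox1. Of each further list up to 4 genes with the smallest p per pair could be named. Jun, Homer1, Btg2 and the further genes described by Prox1 level are named for their role after their values were seen. The 11 alternatives covered pseudocount, filter, scaling, spread, samples, Prox1, a replicate block and counts, and each library was also left out in turn. Replicate numbers did not pair the libraries. A check of the genotype labels is not reported here.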

Additional observations from a re-analysis of the deposited data

How the results depend on the processing

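The fit of all 9 libraries called 0 members, so it held no call that could turn sign, but medians over the members did turn. Btg2 in CRS-WT-DR5-12D against CRS-NKAα1+/- also turned, from 0.11 ± 0.37 with all 9 libraries to −0.93 ± 0.11 without the 3 low in Prox1. Of the counts and medians over the members, 151 recomputed values held and 17 moved. A median was counted as moved when it shifted by at least the SD of the members' mean per library, 0.31 within groups and 0.14 within the Prox1 split. Medians could not move under a replicate block, without the trend, or with a library outside the pair left out, since group means stayed the same. The 151 thus include such values, and turns of sign smaller than that SD. On values rescaled to TPM the members called in CRS-NKAα1+/- against CRS-WT were 4, the median in CRS-WT-DR5-12D against CRS-WT was 0.024, the median by Prox1 level was 0.31 and the members below by Prox1 level were 7. TPM shifted the median of all genes by −0.42 and −0.33 in the comparisons with CRS-WT and by 0.10 in the third. With Prox1 as a covariate the median in CRS-NKAα1+/- against CRS-WT was −0.079 and the members called in CRS-WT-DR5-12D against CRS-NKAα1+/- were 3. Without the 3 libraries low in Prox1 the same median was −0.012 (0.53 with all), with 1 member called in each of these comparisons. The median in CRS-WT-DR5-12D against CRS-NKAα1+/- turned from −0.13 to 0.14 with the covariate, 0.036 without the 3 libraries, and 0.040 and 0.016 without CRS-WT-DR5-12D replicates 2 and 3. Leaving out 1 library at a time gave 0 to 1 member called in CRS-WT-DR5-12D against CRS-NKAα1+/- and 3 to 5 members below by Prox1 level. The median by Prox1 level was 0.78 with a pseudocount of 0.1 and 0.87 at a mean FPKM of at least 2. It was 0.83 within CRS-WT-DR5-12D, where 23 members lay above and 7 below (36.8% and 38.9% of all genes), while 12 lay below within CRS-NKAα1+/- (38.4% of all genes). Causes of these moves were not tested beyond the libraries and scale each setting uses.

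Calls over all genes varied more. In the order of the report, 4, 5 and 2 were higher and 0, 0 and 89 lower. On TPM 98, 28 and 3 were higher and 7353, 947 and 65 lower. With the 2 groups compared only, 2, 19 and 1 were higher and 1, 22 and 4 lower, and without the 3 libraries low in Prox1 40, 4 and 1 were higher and 1, 2 and 94 lower. With no filter on low values 0, 0 and 3 were higher and 0, 0 and 27 lower, with Prox1 as a covariate 1, 12 and 8 were higher and 0, 7 and 88 lower, and by voom 1, 1 and 1 were higher and 0, 0 and 69 lower. With 1 library left out at a time the lower calls of the third comparison ran from 1 to 192. Under a replicate block 0 members were called in each pair (9, 4 and 4 at an unadjusted p under 0.05), the medians stayed 0.53, 0.34 and −0.13, and 0, 0 and 40 of all genes were called. Same-numbered libraries of different groups correlated from −0.35 to 0.50 in their deviations from group means, so the numbers were not taken to pair them. Depth limits Atf3, Maff and Egr2 most, with as few as 7, 23 and 30 fragments.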

Other observations

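CRS-WT replicate 1 differed from its companions in several genes, a choice made after seeing their values, of which Fos was also high where Prox1 was low. Klf4, a pluripotency factor also induced in endothelium, stood at 5.28 FPKM in that library and at 1.11 and 1.15 in replicates 2 and 3, and over all other libraries it ranged from 0.601 to 1.55. Atf3 was 4.17 times, Fosb 3.29 times, Maff 2.80 times, Fos 2.32 times and Ier2 2.04 times the higher of the 2 companions. Cyr61, a secreted matrix protein and SRF target outside the 33, stood at 18.1 FPKM against 4.82 and 4.0. Egr1, Arc, Npas4 and Nr4a1 showed no such gap, at 1.18, 0.844, 0.653 and 0.899 times.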
